A study of Homo sapiens with 4 samples.

Results

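The genes described here are 10 components of the NOTCH pathway, namely the receptors NOTCH1, NOTCH2 and NOTCH3, the ligands JAG1 and JAG2, the target genes HES1, HES4, HEY1 and NRARP, and the coactivator MAML2. They were taken by name through their Entrez identifiers, and all 10 were among the 16813 genes listed in at least 1 library. RNA was measured in PC9, a lung adenocarcinoma line with a mutant EGFR, and in PC9OR, a line derived from it that resists osimertinib, an inhibitor of mutant EGFR. There were 2 replicates of each line. Both lines carry the genotype label WT, PC9 has the phenotype label control and PC9OR osimertinib resistant, and both were grown in RPMI 1640 with fetal bovine serum. PC9OR is a single resistant line. The labels call the replicates biological. Whether PC9OR was kept in drug up to harvest is not given in the sources used here, nor is how the replicates were grown apart, and the p-values measure the spread between these libraries.

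NOTCH receptors are cell-surface proteins that are cut when a ligand on a neighbouring cell, such as a Jagged protein, binds them. The last cut, by gamma-secretase, frees the intracellular domain, which enters the nucleus, joins the DNA-binding protein RBPJ and a Mastermind coactivator such as MAML2, and switches on targets that include the HES and HEY repressors and NRARP. EGFL7, the secreted protein that the study followed in resistance, is known as a noncanonical NOTCH ligand.

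The summed expected counts, which are estimated numbers of reads per gene, ranged from 23201307 to 32203998 per library, so that the floor of 3 counts lay between 0.0936 and 0.128 CPM (counts scaled to a library total of 1000000). Levels of different genes are given in FPKM, which is scaled to transcript length as well as to the library total, and libraries are compared in CPM or by the log2 fold change of PC9OR over PC9 from edgeR's quasi-likelihood test. A gene was called at a Benjamini-Hochberg adjusted p under 0.05 over the 13148 genes tested. The 8 epithelial markers summed to 2576 and 2987 FPKM in PC9 and to 5720 and 5511 FPKM in PC9OR. Of these, EPCAM was between 139 and 148 FPKM in all 4 libraries, the keratins KRT7, KRT8, KRT18 and KRT19 rose (log2 fold changes from 0.94 to 1.28), CDH1 fell (-1.46, edgeR adjusted p = 0.00814), and the lung adenocarcinoma markers NKX2-1 and NAPSA were at 0.17 FPKM or lower in each library. The 5 fibroblast markers summed to 0.19 FPKM or less in each library. The 5 endothelial markers summed to 6.51 and 4.10 FPKM in PC9 and to 0.88 FPKM in both PC9OR libraries, with CDH5 giving most of the sum and no value for KDR, taken as 0. The 5 leukocyte markers summed to 6.97 and 5.55 FPKM in PC9 and to 2.90 and 2.74 FPKM in PC9OR, and most of this was CD68, while CD3E had no value and was taken as 0. The part of these marker sums in the results was not tested, and in bulk RNA fewer cells of a type and less RNA per cell cannot be told apart.

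The receptors NOTCH1 and NOTCH2, the ligand JAG1 and the coactivator MAML2 fell in PC9OR, while the ligand JAG2 and the target HEY1 rose. Of the 10 genes, 2 were called higher, against 15.6% of all tested genes, and 4 were called lower, against 20.8% of all tested genes. With more than 2-fold change required as well, 2 were higher, beside a background of 6.13%, and 3 were lower, beside 11.6%. In CPM, both PC9OR libraries lay above both PC9 libraries for 4 genes, which is the case for 39.6% of all tested genes. They lay below for 5 genes, which holds for 38.2% of all tested genes. The median log2 fold change of the 10 genes was -0.19, next to 0.01 over all tested genes. The number called higher was thus near the background of all genes, and the number called lower lay above it. The 4 called lower were all longer than 5000 bases. Of all tested genes, 35.0% of those with 5000 to 7000 bases and 47.6% of those over 7000 bases were called lower. The difference from the background was not tested.

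**Figure D1:**
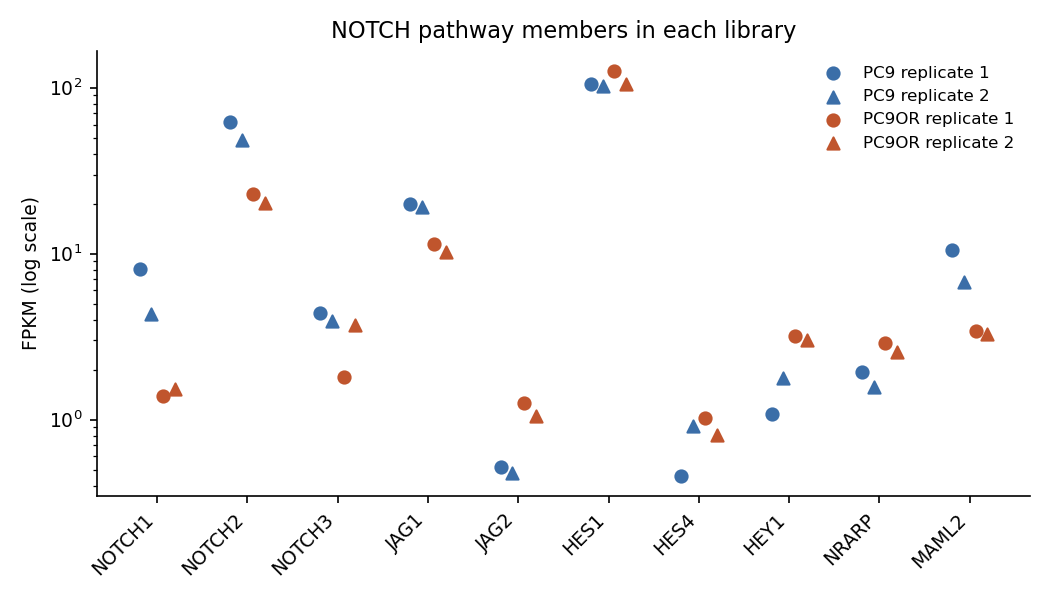
FPKM (vertical axis, log scale) of the 10 genes in each library, with 1 point per library, coloured by line and shaped by replicate. HES1 stood highest in both lines, between 103 and 126 FPKM, and JAG2 and HES4 stood at the low end, at 1.26 FPKM or less.

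Among the 10 genes the levels in PC9 ran, by mean FPKM over 2 replicates, from HES1 (104.5 ± 2.05 SD) through NOTCH2 (55.5 ± 10.0), JAG1 (19.4 ± 0.601), MAML2 (8.68 ± 2.68), NOTCH1 (6.21 ± 2.63) and NOTCH3 (4.15 ± 0.332) to NRARP, HEY1, HES4 and JAG2, each under 2 FPKM. In PC9 the replicates of MAML2 and NOTCH1 overlapped, as did those of NOTCH1 and NOTCH3, of NRARP and HEY1, and of HES4 and JAG2. The first 4 places were the same in PC9OR, at 115.6 ± 14.9 FPKM for HES1, 21.6 ± 2.06 for NOTCH2, 10.8 ± 0.898 for JAG1 and 3.35 ± 0.0919 for MAML2. HEY1 came next in PC9OR at 3.11 ± 0.120 FPKM, followed by NRARP at 2.71 ± 0.240, and the replicates of MAML2, HEY1 and NRARP did not overlap. NOTCH3 could not be placed among these, because its 2 replicates, at 1.80 and 3.71 FPKM, lay on either side of all of them. NOTCH1, at 1.47 ± 0.106 FPKM in PC9OR, ranked below NRARP there, and JAG2 (1.16 ± 0.148) ranked above HES4 (0.915 ± 0.148) with no overlap between their replicates.

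NOTCH1 (Entrez gene 4851, chromosome 9 from 139388885 to 139440500 on the minus strand of GRCh37) encodes a receptor that is central to cell fate choices in many tissues. Its level was 105 and 58.2 CPM in the PC9 libraries and 18.7 and 21.0 CPM in the PC9OR libraries. Both PC9OR values were well below both PC9 values, and the PC9 replicates were themselves 1.81-fold apart. This gap was larger than that of 96.7% of the genes that averaged at least 10 CPM and had counts in both PC9 libraries. NOTCH1 was 4.11-fold lower in PC9OR (log2 fold change -2.04, standard error 0.305, 95% confidence interval -2.82 to -1.26, edgeR adjusted p = 0.0113), the largest difference among the 10 genes in this fit, whereas with either offset below JAG2 differed more. An offset for transcript length, described below with the other long genes, brought it to -1.28 (edgeR adjusted p = 0.00730), and an offset for length and GC content to -1.06 (edgeR adjusted p = 0.00488).

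NOTCH2 (Entrez gene 4853, chromosome 1 from 120454176 to 120643366 on the minus strand) was the most abundant receptor. It stood at 921 and 717 CPM in PC9 and at 361 and 326 CPM in PC9OR. The groups were far apart relative to the replicate spread, at means of 819 ± 145 and 344 ± 25.1 CPM (SD, n = 2). NOTCH2 was 2.38-fold lower in PC9OR (log2 fold change -1.25, standard error 0.162, 95% confidence interval -1.67 to -0.84, edgeR adjusted p = 0.00871). The length offset reduced this to -0.40 (edgeR adjusted p = 0.0409), and the offset for length and GC content to -0.22 (edgeR adjusted p = 0.169), which is no longer a call. NOTCH2 shares 4.42% of its 50-base words with its NOTCH2NL copies and with NBPF genes, so a part of its reads could have been assigned to either. One of these copies, NOTCH2NLA, which was named after its values were seen, had 54.5 and 40.4 CPM in PC9 and 12.8 and 14.8 CPM in PC9OR with a log2 fold change of -1.78 (standard error 0.195, edgeR adjusted p = 0.00674). The deposited transcript length of NOTCH2, which is weighted by the use of its 2 RefSeq transcripts, was 10487 and 10295 bases in PC9 and 10848 and 11004 bases in PC9OR. It was thus longer in both PC9OR libraries, as it was for 19.6% of the 7601 genes with several transcripts.

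NOTCH3 (Entrez gene 4854, chromosome 19 from 15269849 to 15311806 on the minus strand), a receptor known best from the smooth muscle of blood vessels, did not pass the test. Its level was 49.5 and 45.2 CPM in PC9 and 20.9 and 43.8 CPM in PC9OR. One PC9OR library was low and the other came close to PC9. Their 2.10-fold gap was larger than that of 99.6% of the 9131 genes that averaged at least 10 CPM and had counts in both PC9OR libraries. The log2 fold change was -0.55 (standard error 0.351, 95% confidence interval -1.45 to 0.35, edgeR adjusted p = 0.259). Without PC9OR replicate 2 it was -1.17 (edgeR adjusted p = 0.0236), which is a call, and without PC9OR replicate 1 it was -0.10. With the length offset the log2 fold change was 0.05 (edgeR adjusted p = 0.914), so its sign was not set by these data.

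**Figure D2:**
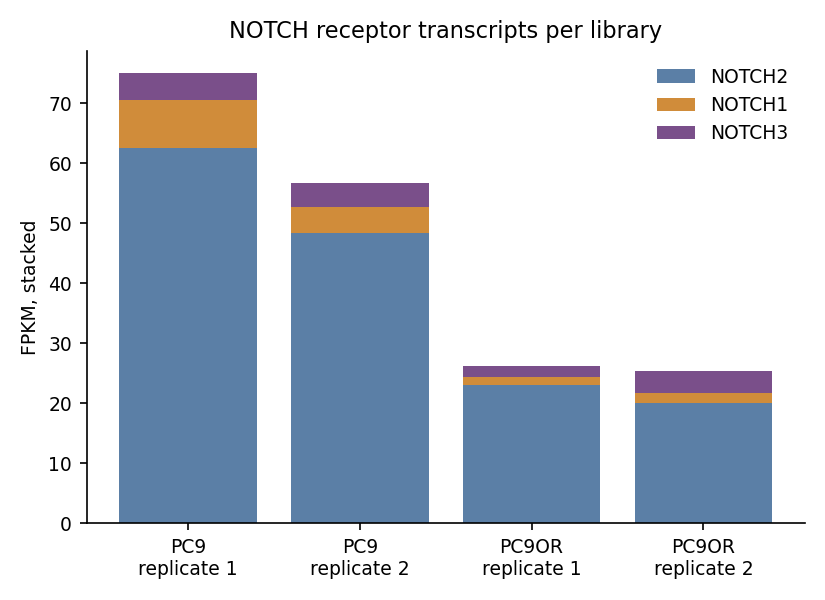
Stacked bars of the FPKM of NOTCH2, NOTCH1 and NOTCH3 in each of the 4 libraries, on a linear axis from 0. The sum was 75.0 and 56.7 FPKM in PC9 and 26.2 and 25.4 FPKM in PC9OR, with NOTCH2 making up the greater part of every bar.

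Per length, the 3 receptors together came to 75.0 and 56.7 FPKM in PC9 and to 26.2 and 25.4 FPKM in PC9OR. NOTCH2 held 83.4% and 85.4% of this sum in PC9 and 87.8% and 79.3% in PC9OR, which overlapped. NOTCH1 held 10.8% and 7.68% in PC9 and 5.30% and 6.07% in PC9OR, so its share was lower in both PC9OR libraries. NOTCH3 held 5.84% and 6.90% in PC9 and 6.87% and 14.6% in PC9OR, again with the PC9OR replicates split. No test was made of these shares, because an exact permutation test of 2 libraries against 2 cannot give a two-sided p below 0.333. The fourth receptor, NOTCH4, had no value in any library, which was taken as 0.

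JAG1 (Entrez gene 182, chromosome 20 from 10618332 to 10654647 on the minus strand) was the main canonical ligand of both lines. Its level was 165 and 162 CPM in PC9 and 98.0 and 88.6 CPM in PC9OR. The PC9 replicates were nearly equal, and both PC9OR libraries lay clearly below them. JAG1 was 1.75-fold lower in PC9OR (log2 fold change -0.81, standard error 0.110, 95% confidence interval -1.09 to -0.53, edgeR adjusted p = 0.00954). The call was lost without PC9OR replicate 1 (edgeR adjusted p = 0.0719) or without PC9OR replicate 2 (edgeR adjusted p = 0.120). With the length offset JAG1 fell by 0.42 (edgeR adjusted p = 0.0329), and once GC content was added to that offset it came to -0.24 (edgeR adjusted p = 0.146).

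JAG2 (Entrez gene 3714, chromosome 14 from 105607319 to 105635161 on the minus strand), the other Jagged ligand, moved the opposite way from a low level. It had 4.22 and 3.99 CPM in PC9 and 10.4 and 8.78 CPM in PC9OR, with the PC9OR values the higher. JAG2 was 2.34-fold higher in PC9OR (log2 fold change 1.22, standard error 0.221, 95% confidence interval 0.66 to 1.79, edgeR adjusted p = 0.0161). The offset for length, which moved the other long members towards higher values too, gave 1.60 (edgeR adjusted p = 0.00598), and the offset for length and GC content gave 1.76 (edgeR adjusted p = 0.00429). The call was lost without PC9OR replicate 1 (log2 fold change 1.10, edgeR adjusted p = 0.117) or without PC9OR replicate 2 (1.35, edgeR adjusted p = 0.0614). JAG2 shares 7.35% of its 50-base words with ENSG00000257622, a noncoding gene that overlaps it on the same strand, and reads from that stretch cannot be told apart. On the log2(FPKM + 1) scale, where a pseudocount of 1 shrinks low genes, the difference was 0.52.

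In FPKM, JAG2 amounted to 2.62% and 2.53% of JAG1 in PC9 and to 11.0% and 10.3% in PC9OR. JAG1 thus remained the more abundant ligand, by 38.2-fold and 39.6-fold in PC9 and by 9.08-fold and 9.69-fold in PC9OR. The summed FPKM of the 2 Jagged genes was 20.4 and 19.5 in PC9 and 12.7 and 11.2 in PC9OR. The Delta-like ligands were near the limit of detection. DLL1 had between 0 and 4 counts per library, DLL3 between 0 and 7, and DLL4 between 2.7 and 8, so none of the 3 entered the test.

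HES1 and HES4 are shown with their sequences because, of the 9 genes with an entry in the promoter table of RefSeq (GRCh38.p14), they were the only ones with an RBPJ motif in the 250 bases before the RefSeq start of the gene. RBPJ is the protein through which the intracellular domain reaches DNA, and its motif is GTGGGAA, whose core TGGGAA lies within it. Both were searched on both strands, and each sequence below had a single exact match in GRCh37, the build of its coordinates. It is written 5′ to 3′ on the strand of the gene, with matches in capitals.
HES1, chr3:193853687-193853936, plus strand: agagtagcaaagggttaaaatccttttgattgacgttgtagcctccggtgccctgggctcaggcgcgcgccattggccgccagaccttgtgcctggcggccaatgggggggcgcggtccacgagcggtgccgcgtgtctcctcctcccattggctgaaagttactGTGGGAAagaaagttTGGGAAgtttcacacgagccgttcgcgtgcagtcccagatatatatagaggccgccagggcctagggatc
HES4, chr1:935478-935727, minus strand: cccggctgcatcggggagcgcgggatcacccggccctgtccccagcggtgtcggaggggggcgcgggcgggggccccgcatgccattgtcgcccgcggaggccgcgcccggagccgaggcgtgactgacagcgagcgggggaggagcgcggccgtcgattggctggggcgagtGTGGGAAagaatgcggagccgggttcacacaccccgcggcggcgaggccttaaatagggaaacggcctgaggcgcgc
HES1 held GTGGGAA with its first base 85 bases before the RefSeq start, and a second TGGGAA 70 bases before it. HES4 held 1 GTGGGAA, which began 77 bases before the RefSeq start. The last 75 bases of the HES4 sequence lie within the gene as GENCODE places it, whose bounds are given below, so against that start the motif lies at the very edge of the gene. GTGGGAA occurred in 5.43% of all 35116 promoters of the table, TGGGAA in 20.8% and at least 2 TGGGAA in 2.90%. Neither motif was found in the same window of NOTCH1, NOTCH2, NOTCH3, JAG1, JAG2, NRARP or MAML2. A match is a match of letters and not a measured binding site.

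HES1 (Entrez gene 3280, chromosome 3 from 193853937 to 193856521 on the plus strand), the repressor that is the classical NOTCH target and the most abundant of the 10 genes, did not pass the test. Its level was 200.5 and 198.6 CPM in PC9 and 242.2 and 206.2 CPM in PC9OR. PC9OR replicate 1 was the highest of the 4 and the other PC9OR library was only slightly above PC9. In FPKM the values were 106, 103, 126 and 105 in the same order, and the groups overlapped. The log2 fold change was 0.17 (standard error 0.123, 95% confidence interval -0.15 to 0.48, edgeR adjusted p = 0.316), and it was -0.11 with the length offset (edgeR adjusted p = 0.533). The interval leaves out a fold change of 2 in either direction.

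HES4 (Entrez gene 57801, chromosome 1 from 934342 to 935552 on the minus strand), a related repressor, was close to the lower end of what the libraries could measure. It had 0.555 and 1.11 CPM in PC9 and 1.28 and 1.06 CPM in PC9OR, from between 13.4 and 40.9 expected counts per library. The groups overlapped, and the log2 fold change was 0.48 (standard error 0.492, 95% confidence interval -0.78 to 1.74, edgeR adjusted p = 0.466). The interval held values of either sign.

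HEY1 (Entrez gene 23462, chromosome 8 from 80674606 to 80680092 on the minus strand), a repressor of the HES family that often pairs with HES1, rose. Its level was 3.33 and 5.62 CPM in PC9 and 10.0 and 9.69 CPM in PC9OR. The lines did not overlap, although the PC9 replicates were 1.69-fold apart. HEY1 was 2.197-fold higher in PC9OR (log2 fold change 1.14, standard error 0.308, 95% confidence interval 0.35 to 1.92, edgeR adjusted p = 0.0421). The length offset left it at 1.08 (edgeR adjusted p = 0.0323). The call was lost without PC9OR replicate 1 (1.12, edgeR adjusted p = 0.134) or without PC9OR replicate 2 (1.17, edgeR adjusted p = 0.124).

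NRARP (Entrez gene 441478, chromosome 9 from 140194083 to 140196723 on the minus strand), a target whose protein feeds back on the NOTCH complex, missed the threshold. It had 6.87 and 5.65 CPM in PC9 and 10.5 and 9.38 CPM in PC9OR, so that the groups did not overlap. The log2 fold change was 0.66 (standard error 0.214, 95% confidence interval 0.12 to 1.21, edgeR adjusted p = 0.0628). It passed the threshold without PC9 replicate 1 (0.80, edgeR adjusted p = 0.0268) and with the offset for length and GC content (0.83, edgeR adjusted p = 0.0177).

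MAML2 (Entrez gene 84441, chromosome 11 from 95709762 to 96076359 on the minus strand), the Mastermind coactivator, fell. Its level was 104.9 and 68.9 CPM in PC9 and 34.8 and 34.1 CPM in PC9OR. The PC9OR replicates were nearly equal and both lay below PC9, in which replicate 1 was the higher. MAML2 was 2.52-fold lower in PC9OR (log2 fold change -1.33, standard error 0.222, 95% confidence interval -1.90 to -0.77, edgeR adjusted p = 0.0137). The length offset gave -0.81 (edgeR adjusted p = 0.0123).

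**Figure D3:**
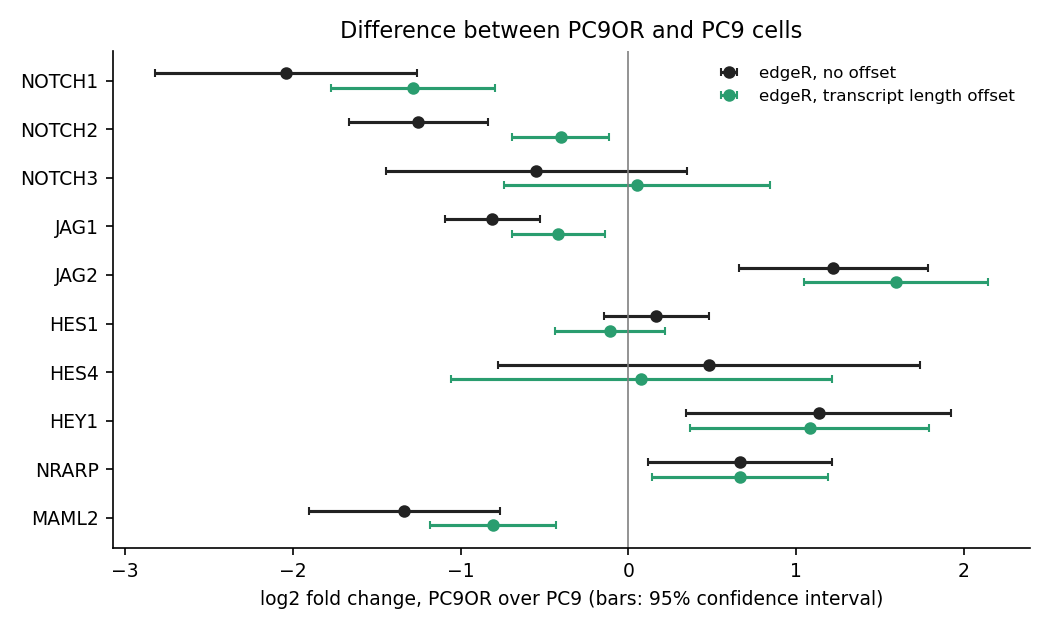
Log2 fold change of PC9OR over PC9 for each of the 10 genes, with 95% confidence intervals, from edgeR's quasi-likelihood test and from the same test with an offset for transcript length. NOTCH1 and MAML2 stayed below 0 and JAG2 and HEY1 above 0 with both, NOTCH2 and JAG1 moved towards 0 with the offset, and NOTCH3 and HES1 changed sign around 0.

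Transcript length ran with the difference between the lines over all genes, and the receptors are among the longest transcripts. The 4 genes over 7000 bases (NOTCH1, NOTCH2, NOTCH3 and MAML2) included 3 of the 4 that were called lower, while the 4 under 3000 bases (HES1, HES4, HEY1 and NRARP) all had log2 fold changes above 0. Of the 1074 tested genes over 7000 bases, 47.6% were called lower and 5.12% higher, with a median log2 fold change of -0.63. Of the 1985 genes under 1500 bases, 6.40% were called lower and 26.5% higher, with a median of 0.46. NOTCH1, NOTCH2 and MAML2 lay below the median of their length class, JAG2 lay far above that of its class (-0.31 for 5000 to 7000 bases), and NOTCH3 lay close to it.

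The same ordering by length appeared between the PC9 replicates. From PC9 replicate 1 to replicate 2 the median log2 difference was 0.34 for genes under 1500 bases and -0.29 for those over 7000 bases, while between the PC9OR replicates it was 0.03 and 0.02. Across genes, the rank correlation with length was -0.34 for the difference between the lines, -0.40 for the difference between the PC9 replicates and -0.01 for that between the PC9OR replicates. NOTCH1, MAML2 and NOTCH2 were each lower in PC9 replicate 2 than in replicate 1, by 0.86, 0.61 and 0.36 on the log2 scale. The fit was repeated with an offset fitted to length in each library. This also removes any true difference between the lines that runs with length, so the part of length itself was not measured. With this offset, 2 of the 10 genes were called higher, beside 20.5% of all tested genes, and 4 lower, beside 18.8%, and the calls fell on the same 6 genes. The median log2 fold change of the 10 genes was then -0.03, next to 0.06 over all tested genes. With GC content added to the offset, 3 were higher (JAG2, HEY1 and NRARP) and 2 lower (NOTCH1 and MAML2). Of all 13148 tested genes, 3007 were then higher and 2670 lower, so the number called lower no longer lay above the background.

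**Figure D4:**
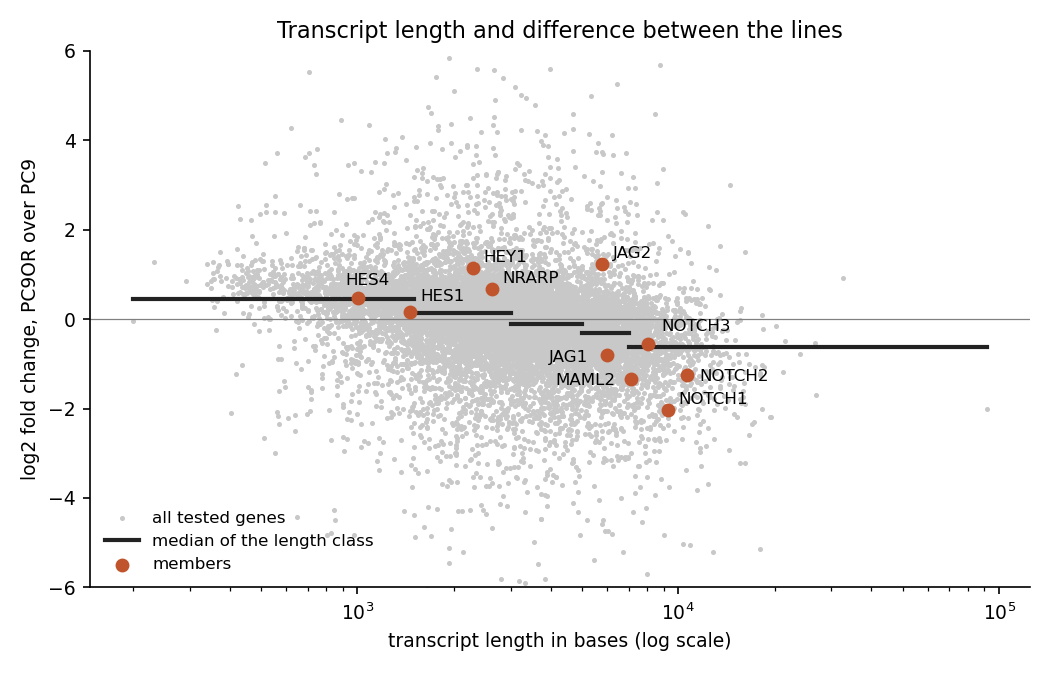
Log2 fold change of PC9OR over PC9 against transcript length in bases (log scale) for all tested genes (grey), with the 10 genes in colour and the median of each length class as a black line. The class medians step down from 0.46 for the shortest to -0.63 for the longest transcripts, and 132 genes lie outside the vertical range.

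The other parts of the pathway were described from a list of 59 further genes, of which 51 were listed in the files and 46 could be tested. Of these 46, 9 rose, 17 fell and 20 were not called, next to the 15.6% higher and 20.8% lower over all tested genes. The median log2 fold change was -0.38, and -0.14 with the length offset. That offset gave 12 higher and 15 lower, beside 20.5% and 18.8% of all tested genes. Without PC9OR replicate 1 the counts were 3 higher and 8 lower, and without PC9OR replicate 2 they were 2 and 8. The genes that fell most were large nuclear proteins that either activate or repress together with RBPJ, and those that rose most were ubiquitin ligases for ligands, EGFL7 and low-level repressors.

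**Figure D5:**
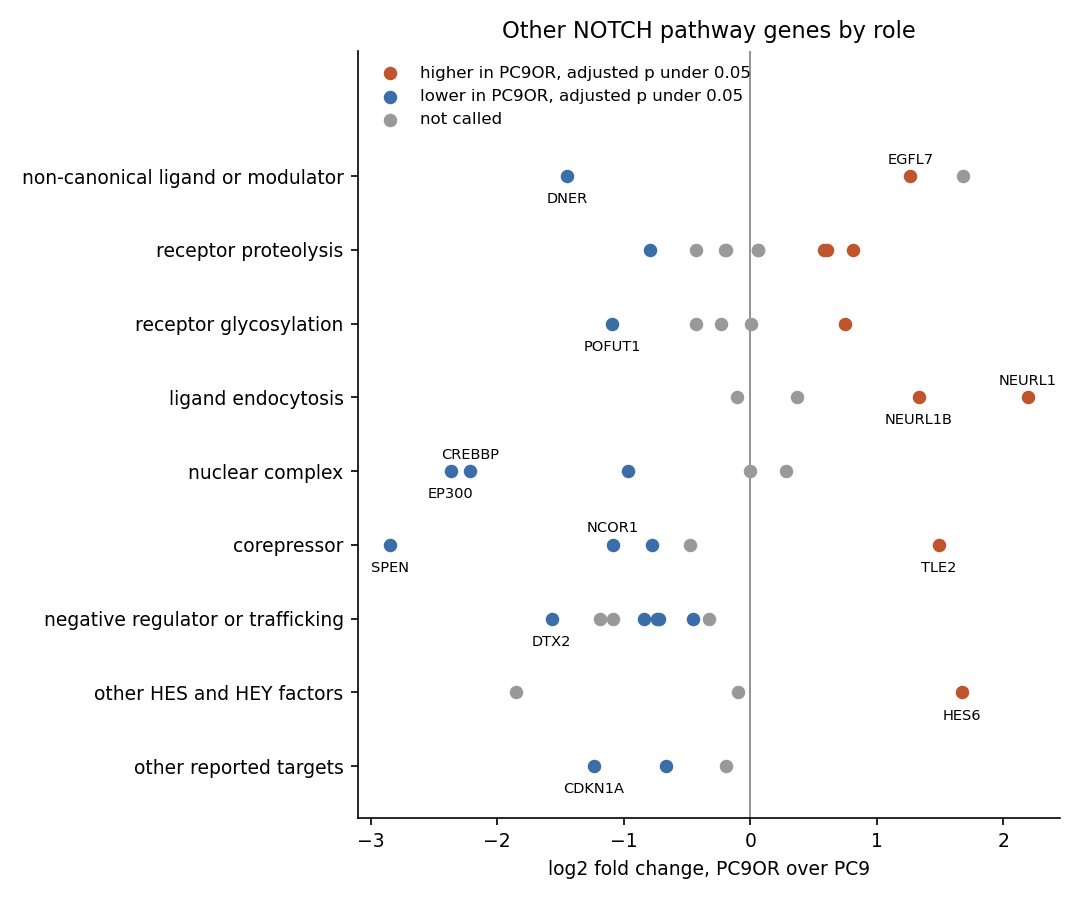
Log2 fold change of PC9OR over PC9 for 45 of the 46 tested pathway genes outside the 10, in rows by role, with points coloured by the call at an adjusted p under 0.05. All called genes among the nuclear complex and the negative regulators lie below 0, and both called genes of ligand endocytosis lie above 0.

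Among the nuclear partners, 3 of 5 fell and 0 rose by edgeR's test, beside 20.8% lower and 15.6% higher over all tested genes. At an unadjusted p under 0.05 and by DESeq2's Wald test 0 rose as well. With the length offset, however, 2 fell and 1 rose, beside 18.8% and 20.5% of all tested genes. The 3 that fell are longer than 7000 bases, a class in which 47.6% of all tested genes were called lower. RBPJ itself stood at 120 and 106 CPM in PC9 and at 114 and 112 CPM in PC9OR, with a log2 fold change of 0.00 (standard error 0.115, edgeR adjusted p = 0.995), and of 0.39 with the length offset (edgeR adjusted p = 0.0235). The acetyltransferase EP300, a coactivator of the complex, had 241 and 128 CPM in PC9 and 34.3 and 37.0 CPM in PC9OR, with a log2 fold change of -2.37 (standard error 0.321, edgeR adjusted p = 0.00952). CREBBP, its close relative, fell by 2.21 (standard error 0.345, edgeR adjusted p = 0.0119), from 139 and 69.8 CPM to 22.6 and 22.5 CPM. In both genes the PC9 replicates were far apart and the PC9OR replicates close together. With the length offset EP300 was at -1.66 (edgeR adjusted p = 0.00475) and CREBBP at -1.37 (edgeR adjusted p = 0.00917). The coactivator MAML3 stood at 50.4 and 29.6 CPM against 20.2 and 20.6 CPM (log2 fold change -0.97, edgeR adjusted p = 0.0440), a call that the length offset ended (-0.44, edgeR adjusted p = 0.120). MAML1 had 36.8 counts in PC9OR replicate 2 and no value in the other 3 libraries, and was not tested. Most cells express MAML1, so the missing values cannot be read as an absence of its RNA.

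Of the 6 corepressors, which hold RBPJ targets silent without NOTCH signal, 4 fell and 1 rose. Over all tested genes 20.8% fell and 15.6% rose. The length offset left the counts at 4 and 1, beside 18.8% and 20.5% of all tested genes. SPEN, which binds RBPJ directly, fell by 2.85 (standard error 0.361, edgeR adjusted p = 0.00846), from 188 and 92.5 CPM to 19.3 and 19.7 CPM. NCOR1 fell by 1.08 (standard error 0.231, edgeR adjusted p = 0.0238). With the length offset SPEN was at -1.85 (edgeR adjusted p = 0.00416) and NCOR1 at -0.62 (edgeR adjusted p = 0.0322). TLE2, a Groucho-type corepressor, was the one that rose, from 1.19 and 1.32 CPM to 2.65 and 4.44 CPM (log2 fold change 1.49, standard error 0.387, edgeR adjusted p = 0.0377).

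Of the 4 genes for ligand endocytosis, which activates receptors on the next cell, 2 rose, and both are Neuralized ubiquitin ligases. Over all tested genes 15.6% rose. With the length offset 3 of the 4 rose, beside 20.5% of all tested genes. NEURL1 had 9.38 and 8.98 CPM in PC9 and 39.9 and 44.2 CPM in PC9OR (log2 fold change 2.19, standard error 0.135, edgeR adjusted p = 0.00344). NEURL1B had 1.19 and 1.32 CPM in PC9 and 3.37 and 2.97 CPM in PC9OR (log2 fold change 1.33, standard error 0.314, edgeR adjusted p = 0.0299). In each gene the PC9OR libraries were the higher pair.

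Of the 3 noncanonical ligands tested, 1 rose and 1 fell, beside 15.6% higher and 20.8% lower over all tested genes. EGFL7 had 14.5 and 18.5 CPM in PC9 and 39.7 and 39.8 CPM in PC9OR (log2 fold change 1.27, standard error 0.160, edgeR adjusted p = 0.00842). With the length offset EGFL7, at 1302 bases a short transcript, was at 0.95 (edgeR adjusted p = 0.00407), less than 2-fold. It lies on the same chromosome as NOTCH1, from 139553308 to 139567130 on the plus strand, 112807 bases from it, and the neighbours moved in opposite directions. They did so with the length offset too, where NOTCH1 was at -1.28 and the gap between them was smaller. DNER, a membrane protein known as a NOTCH ligand in the brain, had 30.9 and 23.7 CPM in PC9 and 11.5 and 8.50 CPM in PC9OR (log2 fold change -1.45, standard error 0.229, edgeR adjusted p = 0.0122).

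Of the remaining roles, the 5 glycosylation genes gave 1 higher and 1 lower, beside 15.6% higher and 20.8% lower over all tested genes. The lower one was POFUT1, the fucosyltransferase that prepares receptors for ligand binding, which had 178 and 170 CPM in PC9 and 81.3 and 82.4 CPM in PC9OR (log2 fold change -1.09, standard error 0.102, edgeR adjusted p = 0.00544). Of the 8 negative regulators and trafficking genes 5 fell and 0 rose by edgeR's test, beside the 20.8% lower over all tested genes. With the length offset 3 fell, beside 18.8% of all tested genes. The calls of DTX3L (-0.36, edgeR adjusted p = 0.0746) and DTX4 (-0.10, edgeR adjusted p = 0.452) were lost. Among those that fell with both was DTX2, a Deltex ubiquitin ligase (log2 fold change -1.57, standard error 0.327, edgeR adjusted p = 0.0226). Of 3 other HES and HEY genes tested, HES6, which counteracts HES1, rose from 1.07 and 1.25 CPM to 4.25 and 3.16 CPM (log2 fold change 1.67, standard error 0.338, edgeR adjusted p = 0.0209). HES5 and HEYL had no value in any library, which was taken as 0.

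Of 3 other genes reported as NOTCH targets, 2 fell, beside 20.8% of all tested genes. The growth regulator MYC had 359 and 289 CPM in PC9 and 221 and 187 CPM in PC9OR (log2 fold change -0.67, standard error 0.160, edgeR adjusted p = 0.0311), and the length offset gave -0.71. The cell cycle inhibitor CDKN1A had 47.7 and 43.5 CPM in PC9 and 23.4 and 15.4 CPM in PC9OR (log2 fold change -1.23, standard error 0.225, edgeR adjusted p = 0.0166). Together with the HES, HEY and NRARP values, the listed targets moved in both directions.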

How the data were processed

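Total RNA of PC9 and PC9OR cells was sequenced from stranded TruSeq libraries, 2 of each line. Per the labels, the authors deposited for each gene an expected count (an estimated read number, not normalized), an FPKM value and a length in bases. The submitters' processing notes name Bowtie2 2.2.5, RSEM 1.2.12 and GRCh37. The paper names SOAP for read filtering and DEGseq for this comparison, which was not rerun here. The lowest FPKM listed was 0.01 and a gene absent from a library was taken as 0. Estimated counts of near-identical copies depend on how RSEM split reads. Symbols matched 99.7% of the 16813 genes, and GC content was known for 96.7%.

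Expected counts were rounded, scaled by TMM and filtered by filterByExpr, and the quasi-likelihood test of edgeR 4.0.16 (R 4.3.3) was run with Benjamini-Hochberg adjustment over 13148 genes. The fits were also run on simulated counts as a check of the code. The simulated replicates differed less than the PC9 replicates did, and without a trend with length. Error rates in these data were thus not measured. Alternatives were DESeq2 1.42.0 (size factors and Wald test), library totals, no filter, limma 3.58.1 on log2(FPKM + 1) and log2(FPKM + 0.1), a replicate block, each library left out, stricter thresholds, and offsets for length and GC content from curves fitted per library with mgcv 1.9.3. Replicates exceeded counting noise (chi-square per degree of freedom 68.7 in PC9 and 10.3 in PC9OR), and the floor of 3 counts covers counting error only, while the intervals of fold changes include the spread between replicates. Promoters came from the RefSeq table, which had no entry for HEY1.

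The 10 genes, the pathway and marker lists and the alternatives were chosen with earlier results of these data known. All 10 were named whatever their values, with the pathway genes past 2-fold and an adjusted p under 0.05, and NOTCH4, DLL1, DLL3, DLL4, EGFL7, RBPJ, MAML1, MAML3 and MYC. Any other gene was named after its values were seen. Values of 2 further listed genes were left out.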

Additional observations from a re-analysis of the deposited data

How the results depend on the processing

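With 2 libraries a line, the calls rested on few degrees of freedom, and leaving out 1 library assumed that the lone library of its line varied like the other line. Over these fits, 525 to 3932 genes were higher and 1177 to 3929 lower, 0 to 3 of the 10 genes were higher and 3 to 4 lower, and 2 to 11 pathway genes were higher and 8 to 23 lower. The 0 arose without PC9OR replicate 1 and without PC9OR replicate 2, where edgeR's test gave 2 of the 10 higher at an unadjusted p under 0.05 in each case, and DESeq2 with all libraries called 2. The log2 fold changes then ranged from -1.17 to -0.10 for NOTCH3, -0.88 to -0.73 for JAG1, 1.10 to 1.35 for JAG2, 0.80 to 1.55 for HEY1 and 0.51 to 0.80 for NRARP. With the length offset NOTCH3 was 0.0498 and HES1 -0.11. With the offset for length and GC content NOTCH3 was 0.26, HES1 -0.0376, NOTCH2 -0.22, JAG1 -0.24 and NRARP 0.83. This offset left 2 of the 10 genes lower, beside 2670 of the 13148 genes tested.

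With more than 2-fold change required beside the threshold of 0.05, 806 genes rose and 1523 fell, and of the pathway genes 5 and 9. With more than 2-fold change at an adjusted p under 0.001, edgeR's test called 0 genes in any set in either direction. At an unadjusted p under 0.05 with the same fold it gave 967 and 1718 genes, 2 and 3 of the 10 and 6 and 12 pathway genes, and DESeq2's Wald test at 0.001 gave 497 and 1238, 0 and 3, and 2 and 9. NOTCH1 and MAML2 kept their direction and call in all 14 refits at an adjusted p under 0.05, from -2.42 to -1.06 and from -1.62 to -0.79. Neither was called at the threshold of 0.001 above by edgeR's test.

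The labels state no shared batch. Across genes, the deviations of same-numbered libraries had a correlation of 0.0968. With 2 pairs, this cannot tell whether same-numbered libraries shared a batch or day. The replicate block gave 2593 genes higher and 2946 lower, 2 and 4 of the 10 genes and 10 and 19 pathway genes, and with the length offset in the same fit 3039 and 2610, 2 and 4, and 13 and 16, with HES1 at -0.11. The block changed no call among the 10 genes.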

Other observations

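The genes that cut NOTCH receptors were described beyond the counts above, and those named here were chosen after their values were seen. Of the 9 proteolysis genes tested, 3 rose and 1 fell, beside 15.6% and 20.8% of all tested genes. All 4 encode parts of gamma-secretase, the complex that makes the last cut. PSENEN had 17.7 and 18.5 CPM in PC9 and 31.7 and 31.9 CPM in PC9OR (log2 fold change 0.81, standard error 0.122, edgeR adjusted p = 0.0113). APH1A had 151 and 191 CPM in PC9 and 262 and 260 CPM in PC9OR (0.61, standard error 0.146, edgeR adjusted p = 0.0314), and PSEN2, a catalytic subunit, rose by 0.58 (standard error 0.137, edgeR adjusted p = 0.0300). Nicastrin (NCSTN), the subunit that receives substrates, had 64.1 and 50.03 CPM in PC9 and 34.3 and 31.8 CPM in PC9OR and fell by 0.79 (standard error 0.159, edgeR adjusted p = 0.0208). With the length offset all 4 kept their direction and call, at 0.44, 0.52, 0.52 and -0.73 in the same order. The surface proteases ADAM10 and ADAM17 had log2 fold changes of -0.19 and 0.06 and were not called.

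Among the negative regulators, the ubiquitin ligase ITCH had 494 and 497 CPM in PC9 and 277 CPM in both PC9OR libraries, and fell by 0.84 (standard error 0.102, edgeR adjusted p = 0.00780). NUMB, which keeps receptors out of recycling, had 54.5 and 46.2 CPM in PC9 and 30.3 and 30.8 CPM in PC9OR (-0.72, standard error 0.130, edgeR adjusted p = 0.0162). With the length offset they were -0.37 and -0.57, both still called.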
